A study of Homo sapiens with 7 samples.

Results

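The genes described here are 10 members of the transforming growth factor beta (TGF-beta) pathway: the ligand TGFB1, the signalling receptors TGFBR1, TGFBR2, ACVR2A and BMPR2, the co-receptor TGFBR3, and the intracellular mediators SMAD2, SMAD3, SMAD4 and SMAD7. They were chosen by name, as the non-control spots of the array whose gene name equals one of these 10 of the 36337 gene names printed there. The array carries 13 probes for them in 22 spots, of 50599 probes in 58717 non-control spots. 8 of the 10 genes have a single probe, TGFBR2 has 2 and SMAD4 has 3.

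The study measured mRNA in human cell lines with altered chromosome numbers and in cells under stress, and asked whether a stress evokes the response that aneuploidy does. The samples here were 4 replicate cultures of HCT116 H2B-GFP, a diploid derivative of a human colon carcinoma line that expresses the histone H2B fused to green fluorescent protein. All 4 were treated with 10 nM bafilomycin A1, an inhibitor of the proton pump of lysosomes, for 30 h, and each was hybridised to 1 single-colour array (Cy3) from 100 ng of RNA. The labels give 10% serum in the medium, while the methods of the study give less. The 3 untreated samples of the line were not analysed here, so no value below is a response to bafilomycin A1. Every value describes the treated cells and the spread between their replicates, and no test of a difference was possible with 1 condition.

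TGF-beta is secreted as a latent dimer and, once released, binds the type II receptor TGFBR2, a serine/threonine kinase that recruits and phosphorylates the type I receptor TGFBR1. TGFBR1 then phosphorylates SMAD2 and SMAD3, which join SMAD4 and enter the nucleus, whereas SMAD7 is induced by the pathway and restrains it at the receptor. ACVR2A and BMPR2 are the equivalent type II receptors for activins and for bone morphogenetic proteins (BMPs). In colon epithelium the pathway restrains growth. HCT116 is deficient in mismatch repair and carries a mutated TGFBR2, as many colon cancers of this kind do, and the coding repeats of TGFBR2 and ACVR2A are frequent sites of such mutations. The probes of the array report the amount of RNA and not its sequence, so a mutated transcript that is still made gives signal.

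Probe sequences are shown for TGFB1, the only one of these genes printed in 10 spots, and for TGFBR2 and SMAD4, whose several probes gave different values. The 60 bases of the TGFB1 probe are given whole, and the first 30 of 60 bases of each of the others. All are in lower case from 5′ to 3′.
TGFB1, A_24_P79054: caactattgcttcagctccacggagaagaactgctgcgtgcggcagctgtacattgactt
TGFBR2, A_23_P211957: catgctgataccatcccaatagctgttgcc
TGFBR2, A_33_P3313825: atcgattgcaaaggagcacttgtcaaaaca
SMAD4, A_23_P27346: aggagaaacacattcttattaattcttcac
SMAD4, A_19_P00812250: ggtcagttgaaagtcccaggagttcctttg
SMAD4, A_19_P00804817: gtctgtggctaaaaaatagtcgaacctttc
The TGFB1 probe lies on the minus strand of chromosome 19 (GRCh37) between 41838142 and 41847802. Its 60 bases are thus spread over 9661 bases of genome and cross a splice junction. The TGFBR2 probes lie on the plus strand of chromosome 3, A_33_P3313825 at 30703057-30703116 and A_23_P211957 at 30735163-30735222, which is 32106 bases further on. The 3 SMAD4 probes lie on the plus strand of chromosome 18. A_23_P27346 is at 48605060-48605119, and A_19_P00812250 (48611270-48611329) and A_19_P00804817 (48611330-48611389) abut each other 6210 bases downstream of it. Which of these positions are exonic coding sequence or UTR was not determined, since no annotation of this build was used here.

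9 of the 10 genes were detected in the bafilomycin A1-treated cells, meaning that at least 1 probe was well above background on all 4 arrays by the scanner software's own mark. The same rule detected 52.5% of all gene names. At the level of probes it was 11 of 13, against 48.7% of all probes. The exceptions were the only probe of the co-receptor TGFBR3 and the probe A_33_P3313825 of TGFBR2. Levels below are log2 background-subtracted signals minus the median of the array, so 0 is the median of the probes with a positive signal on that array. Because probes differ in how well they hybridise, the level of one probe was not set against that of another gene's probe.

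**Figure D1:**
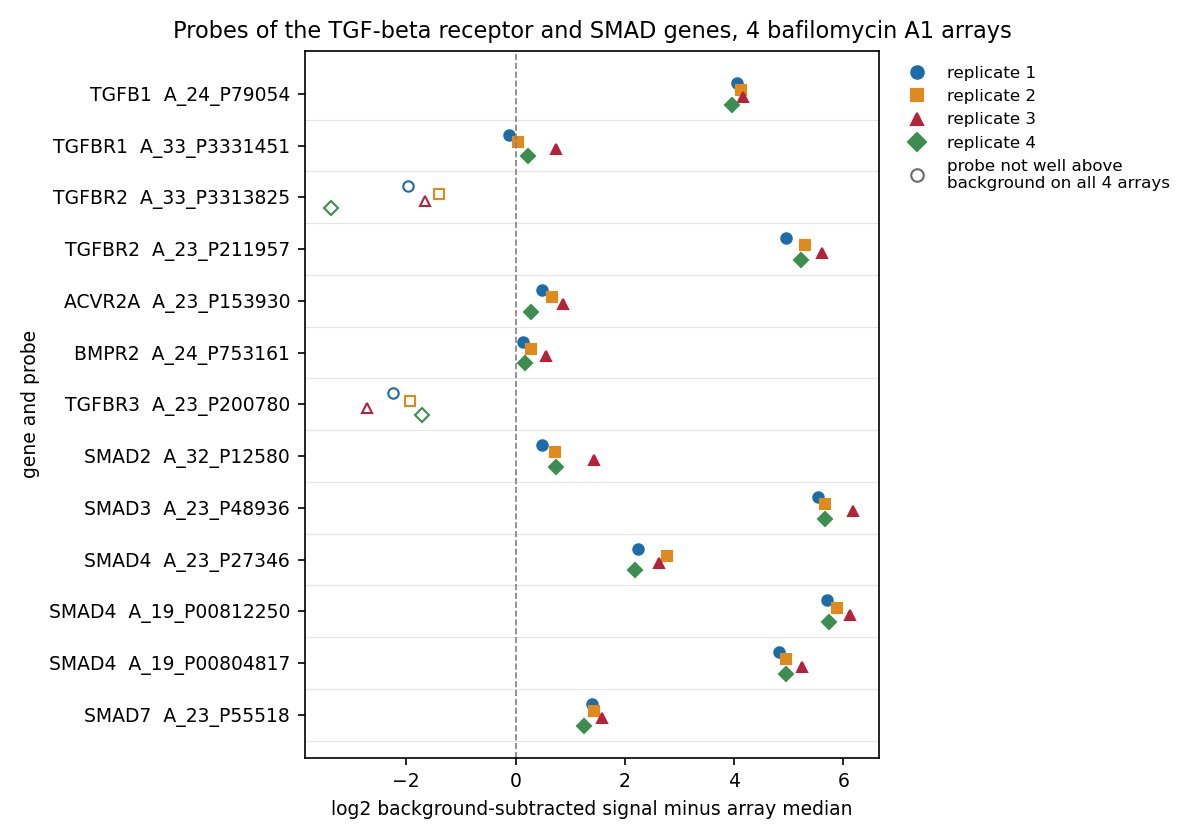
Level of each of the 13 probes (rows) on each of the 4 replicate arrays (colour and shape), as the log2 background-subtracted signal minus the array median (x axis). Open symbols mark the 2 probes that were not well above background on all 4 arrays. In 10 of the 11 rows with filled symbols the red triangle of replicate 3 is the rightmost.

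TGFB1, the ligand, had the smallest spread of the 10 genes. Its level was 4.06, 4.13, 4.17 and 3.96 on replicates 1 to 4, a mean of 4.08 ± 0.09 (SD, n = 4), and the highest array exceeded the lowest by 1.15-fold. The SD stood at the 7.43rd percentile of all detected genes. TGFB1 is printed in 10 spots per array, which gives the error within an array as well. The SD of those spots was 0.21, 0.20, 0.19 and 0.15 on replicates 1 to 4, with 1 spot of replicate 3 left out as a background outlier. The SD between arrays, which is taken over means of 9 or 10 spots, was smaller than the SD of single spots on each array. Over the 673 detected probes printed in 10 spots, the median SD was 0.18 within an array and 0.20 between arrays. With the software's processed signal, which is corrected for position on the array, the spot SDs of TGFB1 were between 0.0474 and 0.0703 and the SD between arrays was 0.03.

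The type I receptor TGFBR1 and the type II receptors ACVR2A and BMPR2 were detected close to the median of the array. TGFBR1 had a level of -0.11, 0.05, 0.74 and 0.23 on replicates 1 to 4, a mean of 0.23 ± 0.37, and spanned 1.80-fold. Its probe is at 101916322-101916381 of chromosome 9, and replicate 3 stood above the others. ACVR2A, with its probe at 148684923-148684982 of chromosome 2, had a level of 0.48, 0.66, 0.88 and 0.29, a mean of 0.58 ± 0.25, and spanned 1.50-fold. BMPR2, with its probe at 203431522-203431581 of the same chromosome, had a level of 0.14, 0.28, 0.55 and 0.18, a mean of 0.29 ± 0.19, and spanned 1.33-fold. The signals of these 3 genes were low, between 71.3 and 129 on the linear scale, where the dimmest spots that still counted as well above background were at 20.8 to 22.3.

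TGFBR2, the type II receptor that binds TGF-beta itself, gave a different picture with each of its probes. The level with A_23_P211957 was 4.96, 5.31, 5.62 and 5.23 on replicates 1 to 4, a mean of 5.28 ± 0.27, well above background on all 4 arrays. The level with A_33_P3313825 was -1.97, -1.40, -1.65 and -3.38, and this probe was well above background on replicates 2 and 3 only. Its signals were 19.7, 26.6, 22.3 and 6.09 on the linear scale, against 2397, 2771, 3449 and 2375 for A_23_P211957. The brighter probe was designed on the RefSeq transcript NM_001024847 and the dimmer one on the Ensembl transcript ENST00000383765. Whether they differ through the RNA or through how the probes hybridise was not tested.

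The gene level of TGFBR2 therefore depended on how its probes were joined. The median over probes, as the study's methods take it, was 1.49, 1.95, 1.98 and 0.92, a mean of 1.59 ± 0.50 with a span of 2.09-fold, the largest spread of the 9 detected genes. With the well measured probe alone the SD was 0.27 and the span 1.58-fold. The low value of replicate 4 in the joined level came from the dim probe, which on that array had a signal under that of any spot well above background.

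TGFBR3, or betaglycan, presents TGF-beta to TGFBR2 and has no kinase of its own. Its probe, at 92148888-92148947 on the minus strand of chromosome 1, had signals of 16.3, 18.4, 10.6 and 19.3 on replicates 1 to 4. On each array this was less than the dimmest spot well above background, which had a signal of 21.5, 21.5, 20.8 and 22.3. The levels of -2.24, -1.93, -2.72 and -1.72 were thus not well above background on any of the arrays. Under the software's weaker criterion of a positive and significant signal, all 10 genes and all 13 probes passed. So did 65.4% of all gene names and 61.7% of all probes.

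All 4 SMAD genes were detected. SMAD2, a receptor-activated SMAD, had a level of 0.49, 0.72, 1.44 and 0.74 on replicates 1 to 4, a mean of 0.85 ± 0.41, and spanned 1.94-fold. SMAD3, the other one, had a level of 5.54, 5.66, 6.18 and 5.67, a mean of 5.76 ± 0.29, and spanned 1.56-fold. In both, replicate 3 was high and the other 3 arrays lay close together. Without replicate 3 the SD was 0.14 for SMAD2 and 0.0761 for SMAD3. The SMAD2 probe is at 45360188-45360247 on the minus strand of chromosome 18 and the SMAD3 probe at 67487391-67487450 of chromosome 15.

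SMAD4, the common partner of the activated SMADs, was read by 3 probes, all well above background on the 4 arrays. A_19_P00812250 had a level of 5.71, 5.89, 6.12 and 5.75, a mean of 5.87 ± 0.18, and A_19_P00804817 had 4.82, 4.95, 5.25 and 4.95, a mean of 4.99 ± 0.18. These 2 probes abut each other, and the first exceeded the second by 0.87 ± 0.06 on every array. Their difference was therefore more stable between replicates than either level. The probe A_23_P27346 had a level of 2.24, 2.78, 2.63 and 2.19, a mean of 2.46 ± 0.29, and its difference from A_19_P00812250 was -3.41 ± 0.20 and from A_19_P00804817 -2.54 ± 0.25. It was also the only detected probe of these genes that was highest on replicate 2. All 3 were designed on the transcript NM_005359, A_23_P27346 at position 2419 and the other 2 at 8629 and 8689. The gene level, the middle probe's, was 4.99 ± 0.18 with a span of 1.34-fold.

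SMAD7, the inhibitory SMAD, had a level of 1.403, 1.44, 1.58 and 1.25, a mean of 1.42 ± 0.14, and spanned 1.26-fold. Its probe is at 46446782-46446841 on the minus strand of chromosome 18. SMAD2, SMAD4 and SMAD7 thus lie within 3.25 megabases of 1 chromosome, with SDs of 0.41, 0.18 and 0.14.

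**Figure D2:**
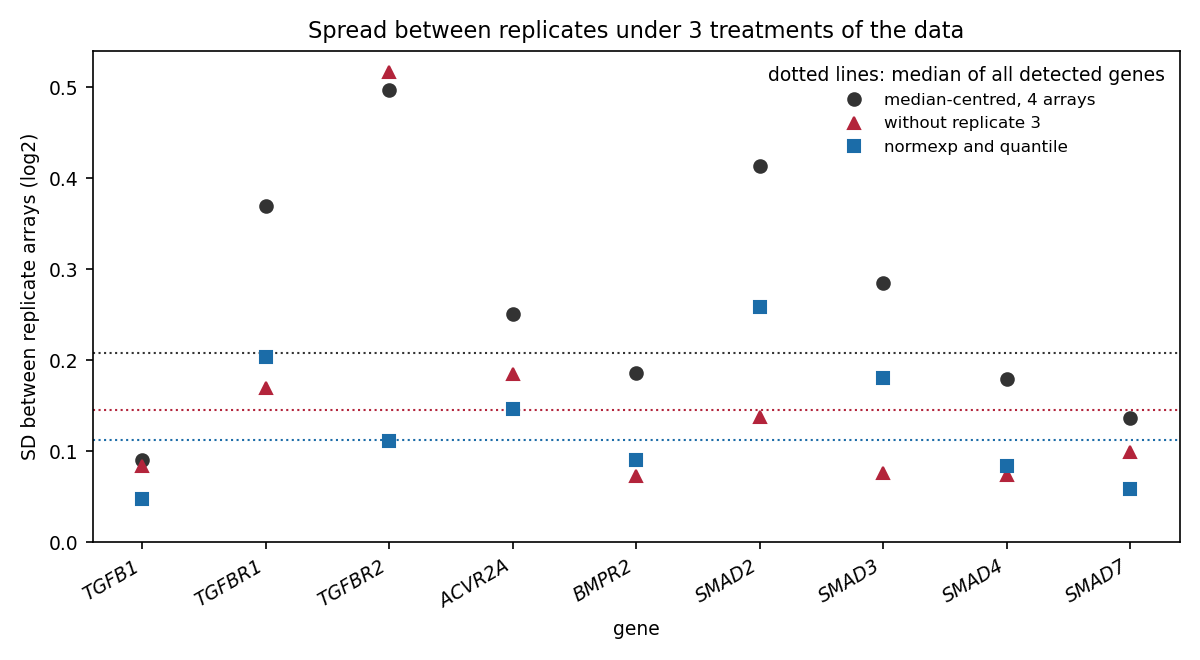
SD between replicate arrays on the log2 scale (y axis) of the 9 detected genes (x axis), with the median-centred signal of 4 arrays (black circles), without replicate 3 (red triangles) and after normexp background correction with quantile normalization (blue squares). Dotted lines give the median of all detected genes under the same treatment, which is 0.21, 0.15 and 0.11.

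Across the 9 detected genes the SD ran from 0.09 (TGFB1) to 0.50 (TGFBR2), with a median of 0.25 beside 0.21 for all 19083 detected genes. 5 of the 9 spanned more than 1.4-fold, namely TGFBR1, TGFBR2, ACVR2A, SMAD2 and SMAD3. Of all detected genes 46.4% did so, and a share of 5 in 9 is near that background. The study took 1.4-fold as its threshold for the ratio between cell lines, each summarised by a median. A span sets the highest single array against the lowest, so these shares do not describe the calls of the study. Without replicate 3 only TGFBR2 spanned more than 1.4-fold, of all detected genes 21.6%, and the median SD of the 9 genes was 0.0996. The span of TGFBR2 then rested on its dim probe, since A_23_P211957 alone spanned 1.27-fold without replicate 3. After normexp background correction and quantile normalization only SMAD2 remained over 1.4-fold, at 1.50-fold, with 15.5% of all detected genes. This correction adds an offset of 50 to each signal before log2, which by itself narrows the spans of dim probes. With the correction and quantile normalization together, the span of the dim TGFBR2 probe went from 3.95-fold to 1.15-fold. Spans of bright probes narrowed as well, from 1.58-fold to 1.31-fold for A_23_P211957 and from 1.56-fold to 1.31-fold for SMAD3. The parts of the offset and of quantile normalization in these changes were not tested.

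Replicate 3 was the top array of the detected genes, while the order of the other arrays varied. All 9 detected genes were highest on replicate 3, by 0.09 (TGFB1) to 0.60 (SMAD2) over their own mean, with a median of 0.30. The lead over replicate 2 was small in TGFBR2 (1.98 against 1.95) and TGFB1 (4.17 against 4.13). TGFBR3, which was not detected, was lowest on replicate 3. Of all detected genes 48.5% were highest on replicate 3, and their median deviation there was 0.10. The lowest array was replicate 1 in 5 genes (TGFBR1, BMPR2, SMAD2, SMAD3 and SMAD4) and replicate 4 in the other 4. Of all detected genes 26.9% were lowest on replicate 1 and 35.1% on replicate 4. This split depended on the processing. When the arrays were centred on all probes, 8 of the 9 were lowest on replicate 1 (48.4% of all detected genes) and 1 on replicate 4 (9.28%). Under quantile normalization 8 of the 9 were still highest on replicate 3, with a median deviation of 0.13, while 37.9% of all detected genes were. The exception was TGFB1, whose deviation there was then -0.06.

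**Figure D3:**
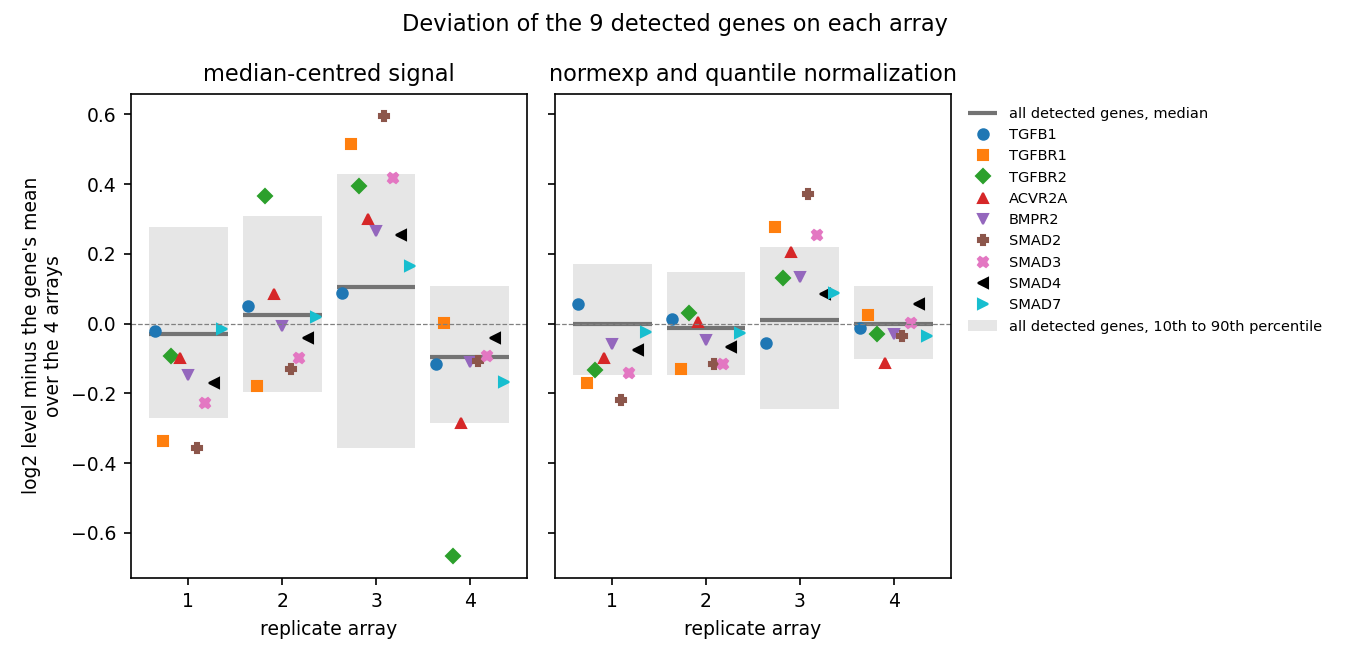
Deviation of each of the 9 detected genes (symbols) from its own mean over the 4 arrays, on the log2 scale (y axis), on each replicate array (x axis), with the median-centred signal (left) and after normexp background correction and quantile normalization (right). Grey boxes span the 10th to 90th percentile of all detected genes and grey lines their median. On replicate 3 all 9 symbols are above 0 on the left and 8 of 9 on the right.

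Replicate 3 stood apart over the whole array, and with the median-centred signal 2 features of the probes moved with that. The scanner software marked 2249 of its spots as outliers, where replicates 1, 2 and 4 had 514, 725 and 527. Probes with a GC content under 40% had a median deviation of 0.25 on replicate 3, and 73.6% of them were highest there, while for probes with a GC content of 50% or more the values were -0.07 and 26.6%. The probes of these genes have a median GC content of 35%, with a range of 35% to 55%, against a median of 45% for all detected probes, and 7 of the 11 detected probes were in the class under 40%. Of that class, 86.7% of the probes with a mean level of 3 or more were highest on replicate 3 and 63.5% of those with a lower one. The 2 detected probes with a GC content of 50% or more, those of TGFB1 and SMAD7, had the smallest deviations on replicate 3 of the 11, at 0.09 and 0.16. Under quantile normalization 62.3% of the detected probes under 40% GC and 15.8% of those of 50% or more were highest on replicate 3. Within the class under 40% the share was then 63.9% at a mean level of 3 or more and 61.0% at a lower one. The parts of GC content and of level in the order of the arrays were not tested.

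The rest of the pathway was described with 10 gene lists, which hold 101 genes with the 10 above included. 77 of the 101 were detected, and 17 had no probe well above background on any array. Leaving out the 10 genes, 68 of 91 were detected (74.7%, against 52.5% of all gene names), 34 of these 68 spanned more than 1.4-fold, and 33 of the 68 were highest on replicate 3. The last 2 shares are close to the 46.4% and 48.5% of all detected genes.

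**Figure D4:**
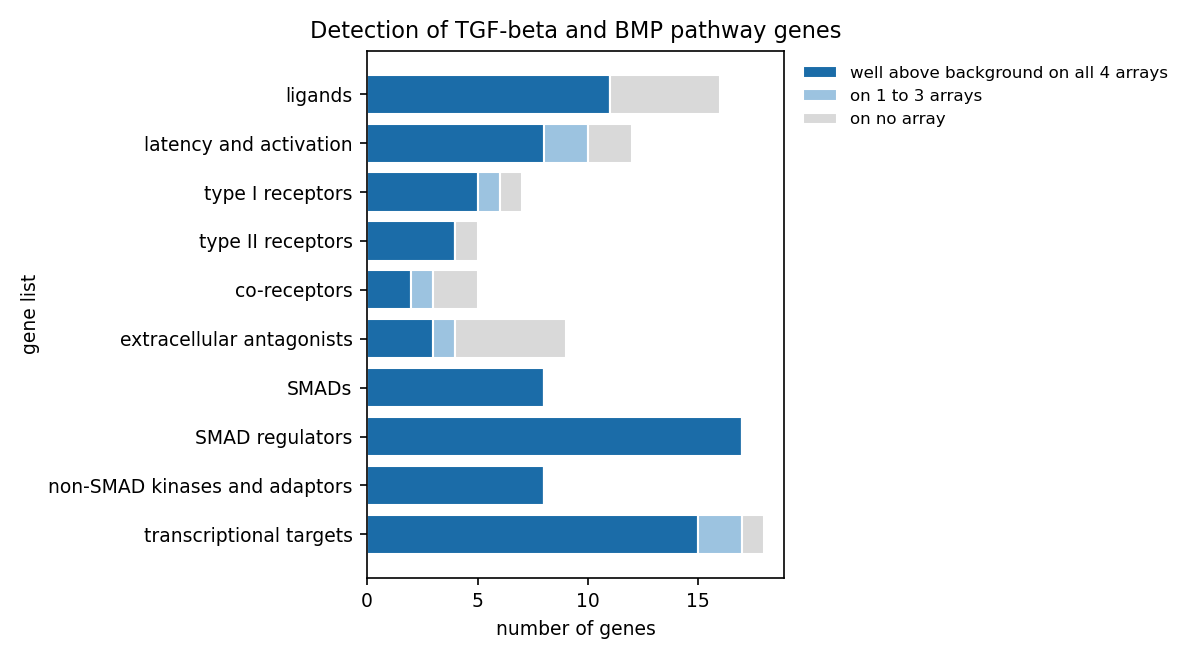
Number of genes (x axis) in each of 10 lists of TGF-beta and BMP pathway genes (y axis) that were well above background on all 4 arrays (dark blue), on 1 to 3 arrays (light blue) or on no array (grey). All SMADs, SMAD regulators and non-SMAD kinases are dark blue, while 5 of 9 extracellular antagonists and 5 of 16 ligands are grey.

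Among type I receptors 5 of 7 were detected. ACVR1, which responds to BMPs and activins, had a mean of 2.62 ± 0.28 (n = 4), BMPR1A, a BMP receptor, 2.59 ± 0.13, and ACVRL1, known from endothelium, -0.37 ± 0.08. With the 4 detected of its 5 probes, BMPR1A had a mean of 2.25 ± 0.35 and spanned 1.74-fold rather than 1.22-fold, so that 4 instead of 3 type I receptors spanned more than 1.4-fold. Of all detected genes 40.1% did so with detected probes alone and 46.4% with all probes. ACVR1C, a receptor for nodal, was detected by 1 of its 3 probes, at -0.74 ± 0.25, and its level over all probes had an SD of 1.46. ACVR1B, the activin type I receptor, was well above background on 2 arrays, with a level of -1.55, -1.94, -1.70 and -2.11, and BMPR1B on none. Among type II receptors 4 of 5 were detected: beside the 3 above, ACVR2B, the second activin receptor, at 3.50 ± 0.34. It was highest on replicate 3 like the other 3. AMHR2, the receptor for anti-Müllerian hormone, was not well above background on any array.

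Of 5 co-receptors, BAMBI, a receptor without kinase that acts as a decoy, had a mean of 5.40 ± 0.15 and RGMB, a BMP co-receptor, -0.62 ± 0.15. Endoglin (ENG), a relative of TGFBR3, was well above background on 2 arrays, with a level of -1.27, -2.25, -1.03 and -1.60, and TDGF1 on none. TGFBR3 was thus 1 of 3 co-receptors not detected on all arrays.

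All 8 SMAD genes were detected. SMAD1, a BMP-activated SMAD, had a mean of 4.16 ± 0.28 and the inhibitory SMAD6 3.38 ± 0.15. For SMAD5 and SMAD9, also activated by BMPs, the value depended on a second, dim probe. The detected probe of SMAD5 gave 3.04 ± 0.06, whereas the median over probes fell to -2.55 on replicate 1, the array on which the dim probe had a positive signal, and had an SD of 2.79. The detected probe of SMAD9 gave 0.59 ± 0.20, and the median over probes -0.30 ± 0.35. With detected probes alone 3 of the 8 SMAD genes spanned more than 1.4-fold, rather than 5. The shares of all detected genes were 40.1% with detected probes alone and 46.4% with all probes.

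Of 16 ligands 11 were detected. BMP2, the activin subunit INHBA, MSTN, NODAL and TGFB2 were well above background on no array. The largest spread among the detected ligands was that of the activin subunit INHBB, at 0.12, 0.39, 0.54 and 1.22, an SD of 0.47, followed by the inhibin subunit INHA with an SD of 0.29 and AMH with 0.20. Of 12 genes of latency and activation 8 were detected. FBN1 and the integrin subunit ITGB6, which frees latent TGF-beta together with ITGAV, were well above background on no array. ITGB8, which can do the same, had a mean of 4.19 ± 0.25. The latent TGF-beta binding protein LTBP1 had an SD of 0.70 over its probes and 0.41 by its detected probe, and LTBP3 0.39 by either. Of 9 extracellular antagonists 3 were detected, the BMP antagonists NOG (-0.09 ± 0.43) and CHRD (1.51 ± 0.08) and the activin antagonist FSTL3 (5.15 ± 0.10). CER1, FST, GREM1, LEFTY1 and LEFTY2 were not well above background on any array.

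All 17 SMAD regulators and all 8 non-SMAD kinases and adaptors were detected. The largest spreads were those of the ubiquitin ligase NEDD4L with an SD of 0.55, the SMAD anchor ZFYVE9 with 0.44 and the ubiquitin ligase SMURF1 with 0.41 in the first list. In the second they were those of TAB1, the partner of the kinase TAK1, with 1.70, the kinase ROCK1 with 0.51 and LIMK1 with 0.43. TAB1 had a second, dim probe, and its detected probe had an SD of 0.08. The detected probe of ROCK1 had an SD of 0.32, and the detected probes of NEDD4L and ZFYVE9 0.15 and 0.24.

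Among 18 genes that TGF-beta or BMP is known to regulate, 15 were detected, and 10 of these spanned more than 1.4-fold, where 46.4% of all detected genes did. CDKN2B, a cell cycle inhibitor, had a level of 0.46, 1.02, -0.56 and -0.01 on replicates 1 to 4, with an SD of 0.68. It was highest on replicate 2 and lowest on replicate 3, as were other detected genes of this list. Of all detected genes 23.2% were lowest on replicate 3. Of the 15 detected genes of this list 8 were highest on replicate 3, against 48.5% of all detected genes. CTGF, a matricellular protein, had a level of 1.23, 2.12, 2.03 and 1.70, with an SD of 0.40. FN1, fibronectin, was well above background on no array. The spot of ID1 was marked as a background outlier on replicates 1 and 3, which left 8.20 on each of replicates 2 and 4.

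The labelled cell type was compared with marker genes. 5 of 6 markers of colon epithelium were detected, with EPCAM at a mean of 8.84, KRT18 at 10.6 and KRT19 at 11.8, whereas VIL1, which marks differentiated enterocytes, was not well above background on any of the arrays. Of the markers of cells that a pure line should lack, 1 of 6 for fibroblasts (COL1A1, 2.91 ± 0.26), 2 of 5 for endothelium (CDH5, 0.83 ± 0.31, and VWF, 0.75 ± 0.09) and 4 of 5 for leukocytes were detected. The leukocyte markers were CD3E (-0.34 ± 0.15), CD68 (1.17 ± 0.22), ITGAM (-0.61 ± 0.13) and PTPRC, the last by 1 of its 5 probes (0.57 ± 0.21). COL1A2, COL3A1, PDGFRB, PECAM1 and KDR were not well above background on any array. A probe well above background near the median of the array, as those of TGFBR1, BMPR2 and ACVR2A were, was thus also seen for genes of other cell types, and whether such low signal is specific was not tested.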

How the data were processed

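The intensity values were made by the authors with Agilent Feature Extraction (version 10.7.3.1 per the labels), which subtracted a local background from each spot and left the arrays without any common scaling. In the same deposited files the software gives a p-value per spot, made from its signal and background, which stands behind the mark of a positive and significant signal; only the marks were used. Probe positions are in GRCh37. All 4 arrays lay on 1 slide, so slide could not be examined as a batch. No spot was saturated (0 spots).

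Control spots and those with an outlier mark were removed. The remaining spots of each probe were averaged, log2 was taken and each array was centred on its median, and a gene with several probes got their median, as in the study's methods. Where a signal was 0 or less, the probe had no value on that array. A probe counted as well above background on an array when over 50% of its spots had that mark. Means have the SD over 4 arrays; their number limits the precision, and no test was made. Dixon's ratio (critical value 0.829) was taken for each gene and probe. The scripts were tested on simulated data.

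The 10 genes and the lists were chosen with earlier results of these data known. Also named are every receptor, co-receptor and SMAD of the lists and, of the other lists, up to 5 genes with no probe well above background and the 3 detected genes of largest SD, of which 1 is not reported here. The alternatives comprised processed signals scaled to the 75th percentile, normexp correction (offset 50) with quantile normalization in limma 3.58.1, other treatments of dim, negative and outlier spots, centring on all probes, other detection rules and leaving out each array. Python 3.11.15 with pandas 2.3.3 and R 4.3.3 were used.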

Additional observations from a re-analysis of the deposited data

Results flagged for a closer look

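In none of the 15 values examined, 10 genes and the 5 probes of TGFBR2 and SMAD4, did 1 array lie apart by Dixon's ratio, although SMAD3 came close with a ratio of 0.792 on replicate 3. Chance gives about 5% of such values, so that none in 15 says little. The 15 values also overlap, since the gene levels of TGFBR2 and SMAD4 are made from the probes counted beside them. Of all detected genes 8.48% exceeded the critical value, and in 63.3% of those the array apart was replicate 3.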

How the results depend on the processing

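The counts of detected genes (9), probes (11) and pathway genes (77) did not change when outlier spots were kept (genes and probes only), when 3 of 4 arrays sufficed, or when any array was left out. With the criterion of a positive and significant signal they were 10, 13 and 87. This criterion was met by 65.4% of all gene names and 61.7% of all probes. The spread depended on the processing. Normexp correction with quantile normalization gave a median SD of 0.111 over the 9 detected genes (0.112 over all detected genes). It left 1 gene over 1.4-fold (15.5% of all detected genes) and gave a median SD of 0.0943 over the 13 probes. Leaving out each array in turn gave a median SD of 0.0996 to 0.300 over genes and of 0.137 to 0.300 over probes, and 1 to 5 genes over 1.4-fold, the lowest of each without replicate 3. Over all detected genes the median SD was then 0.145 to 0.215, and 21.6% to 39.2% spanned more than 1.4-fold. The processed signal gave a median SD of 0.172 (0.184 over all detected genes) and 4 genes over 1.4-fold (39.1% of all detected genes). Centring on all probes gave a median SD of 0.241 (0.219 over all detected genes) and 7 genes over 1.4-fold (51.4%). Of the SDs of the single genes, 22 of 99 recomputed values differed from the reported one by over 1 SD of that gene's leave-one-out values. No paired analysis was possible because the untreated samples were not analysed here. The replicate numbers that they share with the treated samples do not by themselves make them pairs. Dim probes limit the values: that of TGFBR3 was well above background on 0 arrays and A_33_P3313825 of TGFBR2 on 2, and their levels are not reliable.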
